A study of Mus musculus with 217 samples.

Results

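The dopamine receptors are a family of 5 genes, Drd1 to Drd5, that encode the G protein-coupled receptors for dopamine. They were taken by symbol from the count tables of a mouse model of Huntington's disease. All 5 were found among 54532 genes, in every one of the 4 sets of libraries formed by tissue and age. The 217 RNA-seq libraries came from striatum (107) and cortex (110) of 110 mice, 50 of them killed at 6 months and 60 at 12 months, and 107 of the mice gave both tissues.

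All mice were on a C57BL/6 background and carried the beta-actin-LacIR transgene, a lac repressor driven by the ubiquitous beta-actin promoter. WT mice (genotype Hdh(LacO-+/+):beta-actin-LacIR tg) were kept with or without IPTG, the sugar analogue that releases the repressor. The mutant mice (Hdh(LacO-140Q/+):beta-actin-LacIR tg) were heterozygous for a knock-in Huntingtin allele with lac operators and a chimeric mouse and human exon 1, made from targeted embryonic stem cell clones. The LacQ140 group received IPTG from embryonic day 5 onward, so that the mutant allele was on throughout. LacQ140_A never received it, and LacQ140_2M and LacQ140_8M had it withdrawn at 2 and 8 months of age, the last of these only in the 12-month cohort. Each group held 10 mice, 5 of each sex, except that the 12-month striatum of WT, LacQ140 and LacQ140_8M held 9. The 6-month and 12-month cohorts were deposited as separate tables and carry different batch labels, so that age and batch cannot be told apart, and no test was made across ages.

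Dopamine receptors fall into D1-like receptors (Drd1 and Drd5), which couple to stimulatory G proteins and raise cAMP, and D2-like receptors (Drd2, Drd3 and Drd4), which couple to inhibitory G proteins. In the striatum, Drd1 marks the spiny projection neurons of the direct pathway and Drd2 those of the indirect pathway, along with cholinergic interneurons and the terminals of incoming dopamine fibres. Drd3 is best known from the ventral striatum, Drd4 from the cortex and retina, and Drd5 from cortex, hippocampus and striatal interneurons. Indirect pathway neurons are known as the earlier affected projection neurons in Huntington's disease.

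The 5 genes lie apart in the genome (GRCm38). Drd1 (ENSMUSG00000021478) is at chr13:54051183-54055705 on the minus strand and Drd2 (ENSMUSG00000032259) at chr9:49340627-49408177 on the plus strand. Drd3 (ENSMUSG00000022705) is at chr16:43754026-43822932, Drd4 (ENSMUSG00000025496) at chr7:141292006-141296464 and Drd5 (ENSMUSG00000039358) at chr5:38319367-38322518, all on the plus strand. Drd5 is a single-exon gene 3.41 Mb from Htt on the same chromosome, so that its alleles are linked to the targeted one. It shares 1531 exonic bases with an antisense gene, Gm26560, and since the use of strand in the counting is not given in the sources used here, reads of the pair cannot be told apart.

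The sequences upstream of Drd1 and Drd2 are shown because these genes carry the largest part of the receptor RNA and moved together in the comparisons below. They are RefSeq sequence (GRCm38.p6), limited to bases outside the annotated gene, from chr13:54055706-54055908 on the minus strand for Drd1 and from chr9:49340153-49340402 on the plus strand for Drd2. Capitals mark the GC box, GGGCGG or its reverse complement CCGCCC, searched on both strands.
Drd1: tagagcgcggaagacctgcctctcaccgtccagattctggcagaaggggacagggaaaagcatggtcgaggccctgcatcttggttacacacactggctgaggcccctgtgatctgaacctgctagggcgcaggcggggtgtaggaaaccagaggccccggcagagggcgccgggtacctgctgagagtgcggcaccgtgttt
Drd2: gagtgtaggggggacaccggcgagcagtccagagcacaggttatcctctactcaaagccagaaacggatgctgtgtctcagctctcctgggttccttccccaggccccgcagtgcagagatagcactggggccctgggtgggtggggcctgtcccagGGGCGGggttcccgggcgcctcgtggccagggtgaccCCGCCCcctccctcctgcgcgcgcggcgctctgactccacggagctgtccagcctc
The Drd1 stretch held 0 GC boxes at a GC content of 62.6% and the Drd2 stretch 2 at 68.8%, while 32.7% of 32851 RefSeq promoter windows of 250 bases held at least 1. The Drd1 stretch is shorter, at 203 bases, but the whole window it was taken from also held 0. A second RefSeq window of Drd1, at chr13:54054781-54055030 within the annotated gene, held 1. Neither the cAMP response element TGACGTCA nor the letters TATAAA were found in any window of the 5 genes, and 1.55% and 12.4% of all windows hold them. These matches describe letters in a window only.

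Library totals ran from 33292014 to 68038785 estimated counts. Values are given as CPM, the counts scaled to a library of 1000000, after TMM scaling, which corrects for library composition. A gene was called when edgeR's quasi-likelihood test gave a Benjamini-Hochberg adjusted p below 0.05 over all genes tested and a change of at least 1.2-fold in either direction, and each fold change below is a log2 difference with its standard error (SE). The tissue labels were checked against 5 markers of striatal tissue, Adora2a, Gpr6, Six3, Rarb and Rgs9. Their summed level ran from 612 to 1438 CPM in striatal libraries and from 9.49 to 58.1 CPM in cortical ones. Htt, counted over both alleles, was called lower in LacQ140 than in WT + IPTG in the 12-month striatum (log2 difference −0.40, edgeR adjusted p = 9.03e-06) and the 6-month cortex (−0.36, adjusted p = 0.00428), and was not called in the 6-month striatum (−0.12, adjusted p = 0.283) or the 12-month cortex (−0.14, adjusted p = 0.786). Against LacQ140, striatal Htt was at −0.21 (edgeR adjusted p = 0.075) in LacQ140_A and −0.20 (adjusted p = 0.151) in LacQ140_2M at 6 months, and at −0.25 (adjusted p = 0.049) and −0.15 (adjusted p = 0.559) at 12 months, none of them called. In the 12-month striatum the libraries labelled LacQ140_8M were at −0.00 (95% interval −0.14 to 0.14) against LacQ140 and at 0.25 (edgeR adjusted p = 0.0483, under the bound) against LacQ140_A. In cortex of the 12-month mice Htt in LacQ140_8M was at −0.41 against LacQ140 (unadjusted p = 0.00256, edgeR adjusted p = 1.0), and against WT it was called lower in striatum (−0.27, adjusted p = 0.00457) and cortex (−0.64, adjusted p = 0.0222).

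In the striatum of WT mice without IPTG, Drd2 and Drd1 stood far above the other receptors when levels were divided by transcript length. At 6 months the mean level was 94.0 CPM per kb for Drd2, 71.8 for Drd1, 1.16 for Drd5, 0.508 for Drd3 and 0.0784 for Drd4. At 12 months it was 120 CPM per kb for Drd2, 68.4 for Drd1, 1.28 for Drd5, 0.606 for Drd3 and 0.169 for Drd4. The order was the same at both ages, and the values for each gene by mouse are given below.

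Full expression of the mutant allele from before birth was examined first, as LacQ140 against WT + IPTG, where both groups received IPTG. At 6 months Drd1, the direct pathway receptor, ranged in WT + IPTG from 205 to 261.1 CPM around a median of 232.3. In LacQ140 it ranged from 155 to 198 CPM around a median of 179. Every LacQ140 mouse lay below every WT + IPTG mouse. Drd1 fell by 0.39 on the log2 scale (SE 0.05, edgeR adjusted p = 1.72e-07), and the LacQ140 mean was 76.1% of the WT + IPTG mean. Drd2, the indirect pathway receptor, ranged from 168 to 261.5 CPM with a median of 211 in WT + IPTG and from 120 to 195 CPM with a median of 156 in LacQ140. The ranges overlapped between 168 and 195 CPM. Drd2 fell by 0.45 (SE 0.08, edgeR adjusted p = 7e-05), to 73.3% of the WT + IPTG mean.

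At 12 months the levels of Drd1 and Drd2 in LacQ140 lay further from those in WT + IPTG than at 6 months, a difference between ages that was not tested. Drd1 ranged from 206 to 287.3 CPM (median 257.9) in WT + IPTG and from 120.8 to 168 CPM (median 147.9) in LacQ140, with no overlap. It fell by 0.82 (SE 0.08, edgeR adjusted p = 4.92e-13), to 56.6% of the WT + IPTG mean. Drd2 ranged from 242.02 to 388 CPM (median 346) in WT + IPTG and from 151 to 208 CPM (median 191) in LacQ140, again with no overlap. It fell by 0.86 (SE 0.07, edgeR adjusted p = 5.89e-16), to 55.1% of the WT + IPTG mean. In bulk tissue, fewer cells of a type and less RNA per cell cannot be told apart. One LacQ140 male at 12 months carried 306 CPM of summed cortical excitatory neuron markers against a group median of 8.38. Without it the log2 differences were −0.80 for Drd1 and −0.83 for Drd2.

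**Figure D1:**
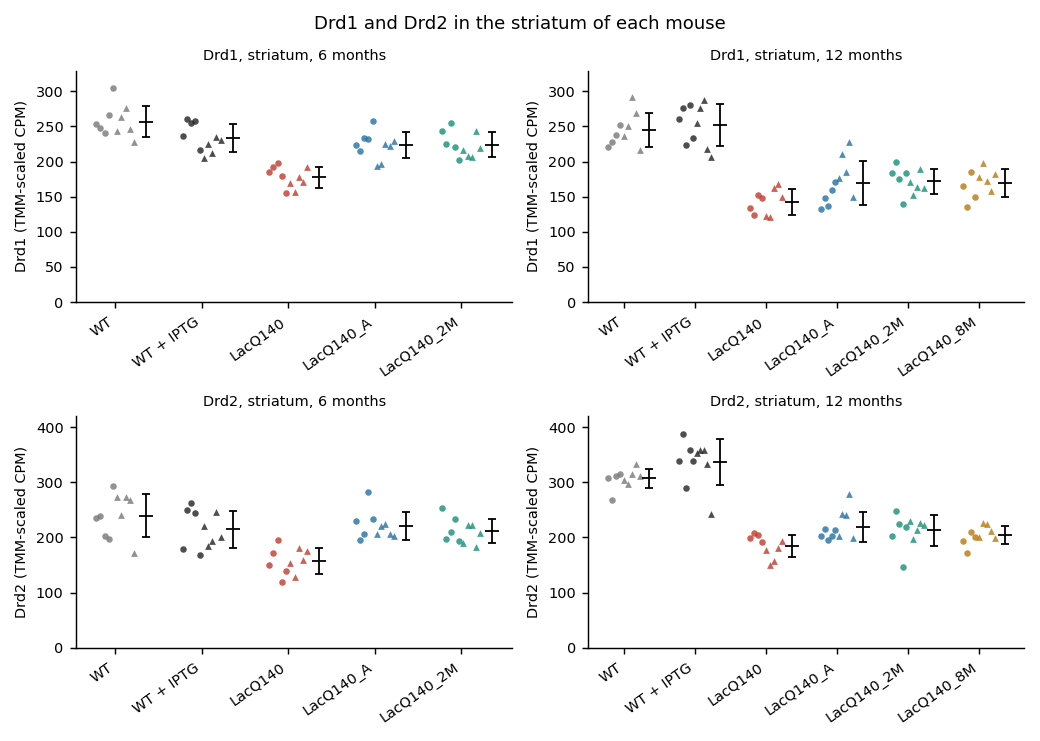
TMM-scaled CPM of Drd1 and Drd2 (vertical axis) in the striatum of each mouse, by group, at 6 and 12 months. Circles are females, triangles are males and black marks are the mean ± SD; at 12 months all LacQ140 mice lie at or below 168 CPM for Drd1 and 208 CPM for Drd2, under the WT + IPTG mice.

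The less abundant receptors behaved unevenly. Drd5, the other D1-like receptor, had a median of 3.32 CPM (2.84 to 4.47) in WT + IPTG and 3.51 CPM (2.13 to 3.96) in LacQ140 at 6 months, with overlapping ranges and a log2 difference of −0.05 (adjusted p = 0.817, edgeR). At 12 months its median was 3.98 CPM (2.75 to 5.03) in WT + IPTG and 3.103 CPM (2.40 to 3.83) in LacQ140. Drd5 then fell by 0.29 (SE 0.09, edgeR adjusted p = 0.015), although the ranges overlapped. Without the LacQ140 male with cortical markers the difference was −0.27, and the call was lost without either LacQ140 male 1 (−0.24, adjusted p = 0.0534) or WT + IPTG male 5 (−0.24, adjusted p = 0.0447, under the bound of 1.2-fold). With only the 2 groups in the fit the difference was −0.29 and was not called (edgeR adjusted p = 0.0605).

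Drd3, the D2-like receptor of the ventral striatum, was the only receptor called higher in LacQ140. At 6 months its median was 0.793 CPM (0.342 to 1.05) in WT + IPTG and 1.12 CPM (0.673 to 1.70) in LacQ140, on 17 to 91 counts a library and with overlapping ranges. It rose by 0.51 (SE 0.15, edgeR adjusted p = 0.0177), a call lost without LacQ140 female 4 (0.42, adjusted p = 0.0654). At 12 months the log2 difference was −0.25 (SE 0.22, adjusted p = 0.587, edgeR). Drd4 rested on 1 to 26 counts a library in these 2 groups at 6 months and on 4 to 17 at 12 months. Its log2 difference was −0.17 (95% interval −0.68 to 0.34) at 6 months and −0.38 (−0.94 to 0.18) at 12 months, neither of them called. Against WT mice with and without IPTG pooled it was called at 12 months, at −0.85 (edgeR adjusted p = 0.0155).

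Of the 5 receptors, 3 were called at 6 months, 2 lower and 1 higher, where 7.93% of all 35808 genes tested were called (3.97% higher and 3.96% lower). At 12 months 3 were called, all lower, where 9.44% of 35386 genes were called (4.86% lower). The median log2 difference over the 5 receptors was −0.17 at 6 months and −0.38 at 12 months, while that over all genes tested was 0.00 at both ages.

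IPTG itself was examined in WT mice, as WT + IPTG against WT. At 6 months Drd1 ranged in WT from 227.45 to 305 CPM with a median of 250.5, and overlapped WT + IPTG. The log2 difference was −0.14 (SE 0.05, unadjusted p = 0.0119, edgeR adjusted p = 0.326) for Drd1 and −0.16 for Drd2. At 12 months it was 0.04 for Drd1 and 0.13 for Drd2. Drd4 had the widest difference there, with 0.240 to 0.806 CPM (median 0.396) in WT and 0.177 to 0.365 CPM (median 0.237) in WT + IPTG, overlapping between 0.240 and 0.365. It differed by −0.86 (SE 0.24, edgeR adjusted p = 0.0876), and was called without WT + IPTG male 5 (−0.92, adjusted p = 0.0406) and with filterByExpr (−0.87, adjusted p = 0.0469). edgeR called 0 of 5 receptors at either age, against 0.584% of all genes at 6 months and 0.218% at 12 months. At an unadjusted p under 0.05 it was 1 receptor at each age, and DESeq2 called 0. Here and below, counts at an unadjusted p stand without the share of all genes at that threshold.

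**Figure D2:**
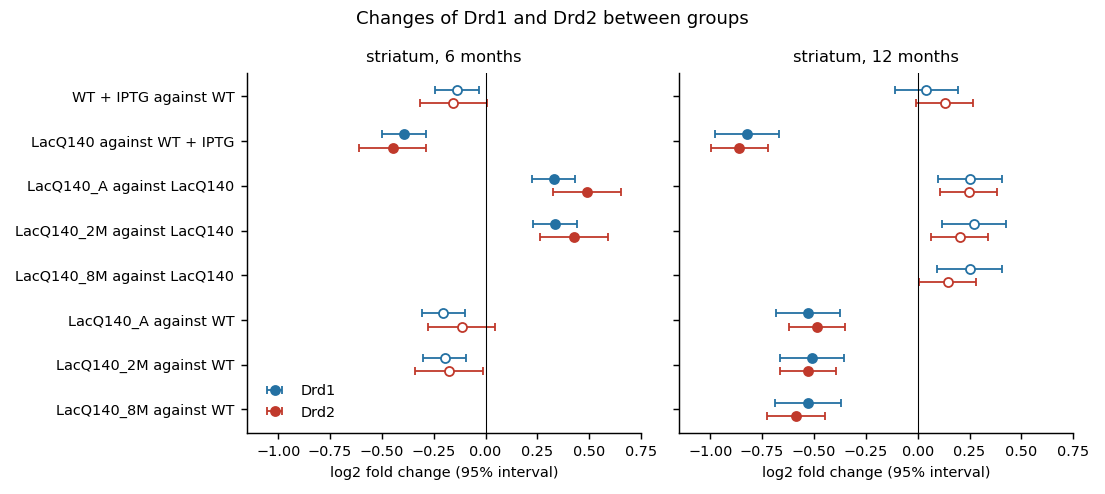
Log2 difference of Drd1 (blue) and Drd2 (red) in the striatum (horizontal axis) with its 95% interval, for each comparison, at 6 and 12 months. Filled marks are called by edgeR and open marks are not; Drd1 and Drd2 are called lower in LacQ140 at both ages, and called higher in LacQ140_A and LacQ140_2M against LacQ140 at 6 months only.

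Lowering of the mutant allele was examined by comparing each lowering group with LacQ140, which serves as the shared control of these comparisons. LacQ140 was on IPTG and the lowering groups were off it when tissue was taken. Lowering and the absence of IPTG thus cannot be told apart in these comparisons. For scale, WT + IPTG differed from WT by −0.14 for Drd1 and −0.16 for Drd2 at 6 months, neither of them called. At 6 months Drd1 ranged from 194 to 257.6 CPM (median 225) in LacQ140_A and from 203 to 254 CPM (median 220) in LacQ140_2M. The LacQ140_2M mice all lay above the LacQ140 maximum of 198 CPM, while the LacQ140_A range overlapped it. Drd1 was higher by 0.33 (SE 0.05, edgeR adjusted p = 2.97e-05) in LacQ140_A and by 0.33 (SE 0.05, adjusted p = 4.9e-05) in LacQ140_2M. Drd2 ranged from 196 to 282 CPM (median 214) in LacQ140_A, above every LacQ140 mouse, and from 183 to 254 CPM (median 209) in LacQ140_2M, overlapping LacQ140. It was higher by 0.49 (edgeR adjusted p = 6.53e-05) and by 0.43 (adjusted p = 0.0012). LacQ140_A female 1 carried 115.4 CPM of summed pituitary markers, and without it the LacQ140_A differences were 0.33 for Drd1 and 0.48 for Drd2. Summed striatal tissue markers ranged from 668 to 865 CPM in LacQ140, from 953 to 1341 CPM in LacQ140_A and from 870 to 1037 CPM in LacQ140_2M. Both lowering groups thus lay above LacQ140 in these markers as well. The part of other cells in these differences was not tested.

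Drd5 was the nearest of the remaining receptors to a call. It lay between 3.58 and 4.73 CPM (median 3.97) in LacQ140_A at 6 months, overlapping LacQ140, with a log2 difference of 0.29 (SE 0.09, edgeR adjusted p = 0.0683). DESeq2 called it at 0.30 (adjusted p = 0.0307). Drd3 differed by −0.32 (adjusted p = 0.373) in LacQ140_A and by −0.12 (adjusted p = 0.788) in LacQ140_2M, both by edgeR. With edgeR 2 of 5 receptors were called higher in each comparison, where 1.88% of all genes were called (1.3% higher) in LacQ140_A and 1.26% (0.704% higher) in LacQ140_2M.

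At 12 months the differences of the lowering groups from LacQ140 had the same sign for Drd1 and Drd2, were smaller in value in LacQ140_A and LacQ140_2M than at 6 months, and were not called. Drd1 ranged from 133 to 227.7 CPM (median 165) in LacQ140_A, from 139 to 199 (median 173) in LacQ140_2M and from 135 to 197.5 (median 173) in the libraries labelled LacQ140_8M, all overlapping LacQ140. The log2 difference of Drd1 from LacQ140 was 0.25 (95% interval 0.10 to 0.41, edgeR adjusted p = 0.107), 0.27 (0.12 to 0.43, adjusted p = 0.0923) and 0.25 (0.09 to 0.41, adjusted p = 0.864) in the 3 groups. Drd2 had a lowest value of 196 CPM in LacQ140_A (median 208), where the highest mouse lay within the WT range, and ranged from 146 to 247.5 CPM (median 220.8) in LacQ140_2M and from 172 to 227 CPM (median 201) in LacQ140_8M. Its log2 difference was 0.25 (0.11 to 0.38, edgeR adjusted p = 0.0563), 0.20 (0.07 to 0.34, adjusted p = 0.236) and 0.14 (0.00 to 0.28, adjusted p = 0.864). edgeR called 0 of 5 receptors in each, against 0.91%, 0.608% and 0.00565% of all genes. At an unadjusted p under 0.05 it was 2, 3 and 2 receptors, and DESeq2 called 0. The shares of all genes given here are for adjusted calls, and the unadjusted counts have no share beside them. Whether the 6-month and 12-month differences differ was not tested.

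The lowering groups were also compared with WT mice without IPTG. At 6 months the log2 difference of Drd1 from WT was −0.20 in LacQ140_A (edgeR adjusted p = 0.0377) and −0.20 in LacQ140_2M (adjusted p = 0.0443), both under the bound of 1.2-fold. Drd2 differed by −0.12 and −0.18. With WT + IPTG in place of WT the values were −0.07 and −0.06 for Drd1 and 0.04 and −0.02 for Drd2, none of them called. edgeR called 0 of 5 receptors in each, against 0.91% and 0.936% of all genes. At an unadjusted p under 0.05 it was 1 receptor in LacQ140_A and 2 in LacQ140_2M, and DESeq2 called 0.

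At 12 months Drd1 ranged from 216 to 291 CPM in WT (median 238), and only LacQ140_A overlapped it. Drd1 was lower than in WT by log2 −0.53 in LacQ140_A (edgeR adjusted p = 1.03e-06), −0.51 in LacQ140_2M (adjusted p = 2.25e-06) and −0.53 in the libraries labelled LacQ140_8M (adjusted p = 8.49e-07). Drd2 ranged from 269 to 332 CPM in WT (median 311.2), and again only LacQ140_A overlapped it. The log2 difference of Drd2 was −0.49 (edgeR adjusted p = 3.57e-07), −0.53 (adjusted p = 3.31e-08) and −0.59 (adjusted p = 1.92e-09). For both genes the calls were also made with WT + IPTG in place of WT, at −0.57, −0.55 and −0.57 for Drd1 and −0.62, −0.66 and −0.72 for Drd2.

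Drd4 was called lower than WT in the same 3 groups, by log2 −1.01 (edgeR adjusted p = 0.00517), −0.83 (adjusted p = 0.0198) and −0.96 (adjusted p = 0.00502). The WT mean of 0.472 CPM (SD 0.184, n = 9) stood above the means of the other 5 groups, at 0.198 to 0.264 CPM. With WT + IPTG in place of WT the values were −0.15, 0.03 and −0.09, none called. The LacQ140_2M call was also lost without LacQ140_2M female 3, WT female 1 or WT male 5. Drd5 was called in LacQ140_8M, at −0.27 (edgeR adjusted p = 0.0356), close to the bound of 1.2-fold, and the call was lost in 28 of 57 fits that left out 1 library. Called receptors thus numbered 3, 3 and 4 of 5, all lower, against 3.15%, 4.09% and 7.77% of all genes (1.91%, 2.13% and 4.04% lower).

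**Figure D3:**
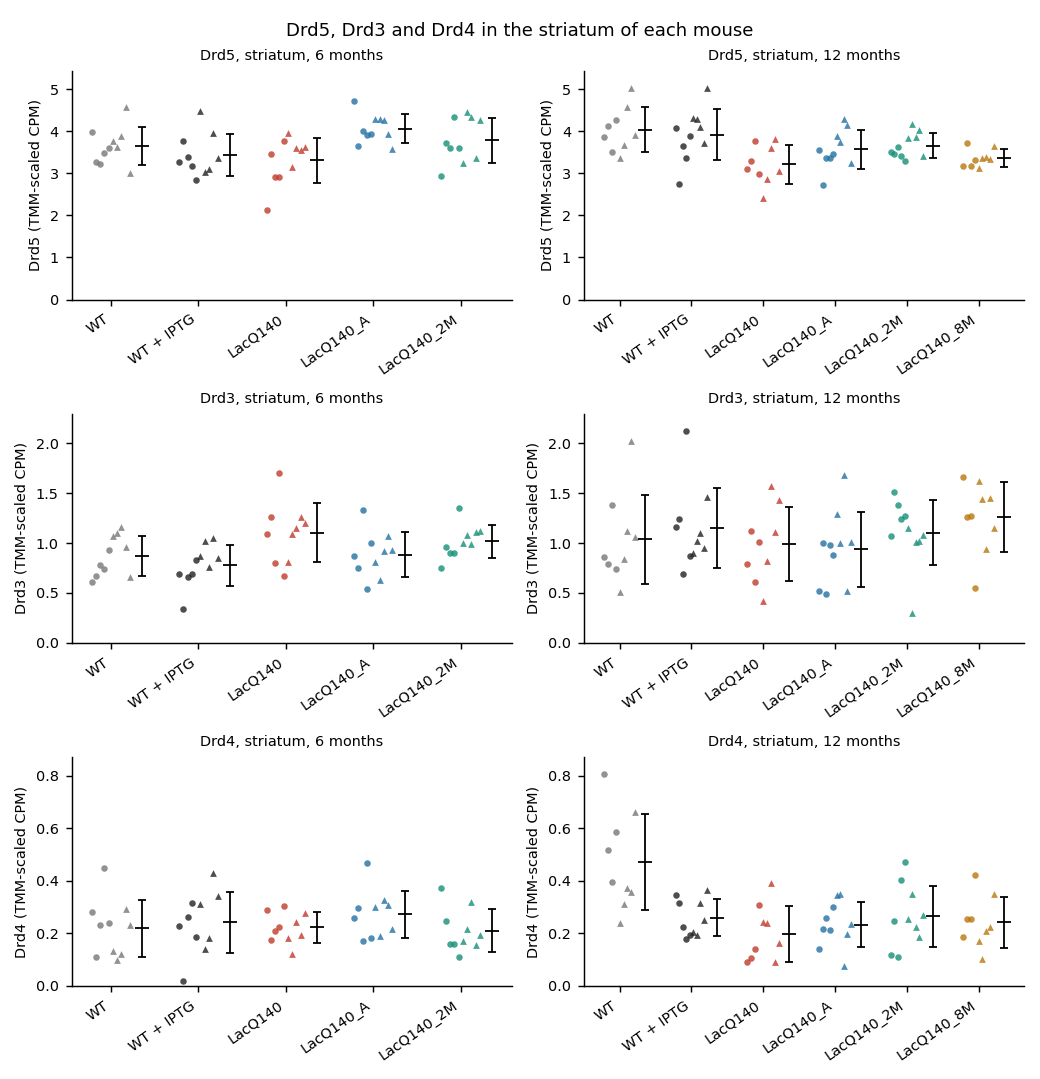
TMM-scaled CPM (vertical axis) of Drd5, Drd3 and Drd4 in the striatum of each mouse, by group and age. Circles are females, triangles are males and black marks are the mean ± SD; at 12 months the WT mean of Drd4, 0.472 CPM, lies above all other groups, and the Drd3 ranges overlap throughout.

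The 3 lowering groups were compared with each other. edgeR called 0 of 5 receptors in each of these comparisons at either age and in either tissue, and DESeq2 called 0 as well. In the striatum the log2 difference of Drd1 between lowering groups lay between −0.02 and −0.00, within 95% intervals that spanned −0.18 to 0.15. That of Drd2 lay between −0.10 and 0.06, within intervals that spanned −0.24 to 0.22. At an unadjusted p under 0.05 it was 0 receptors in the striatum. The share of all genes called was 0.0251% between LacQ140_A and LacQ140_2M at 6 months and, in the 12-month striatum, 0.0509% between those groups, 0.972% between LacQ140_8M and LacQ140_A and 0.0933% between LacQ140_8M and LacQ140_2M.

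The balance of the direct and indirect pathway receptors was examined as the log2 ratio of Drd1 to Drd2 counts in each mouse, with a pseudocount of 0.5. The ratio is not corrected for transcript length, so that only its differences between groups are read. At 6 months it had a median of 0.107 (−0.108 to 0.394) in WT + IPTG and 0.148 (−0.021 to 0.585) in LacQ140. The ranges overlapped, and the difference in means was 0.05 (95% interval −0.11 to 0.22, permutation test over 100000 resamples, p = 0.51, adjusted p over 18 comparisons 0.74). At 12 months the median was −0.374 (−0.614 to −0.233) in WT + IPTG and −0.374 (−0.751 to 0.044) in LacQ140. The difference was 0.03 (−0.16 to 0.23, exact permutation p = 0.69, adjusted p = 0.89). Drd1 and Drd2 thus fell in LacQ140 with no detectable difference in their ratio, within intervals of up to 0.23 on the log2 scale.

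The lowering groups differed in that ratio from LacQ140 by no amount that passed adjustment. LacQ140_A at 6 months had a median of 0.056 (−0.280 to 0.183), a difference of −0.17 (−0.32 to −0.01, permutation p = 0.03, adjusted p = 0.34). At 12 months the differences were −0.00, 0.08 and 0.10 for LacQ140_A, LacQ140_2M and the libraries labelled LacQ140_8M, with intervals that all included 0. The group means were 0.017 to 0.185 at 6 months and −0.413 to −0.274 at 12 months, in cohorts that differ in batch.

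**Figure D4:**
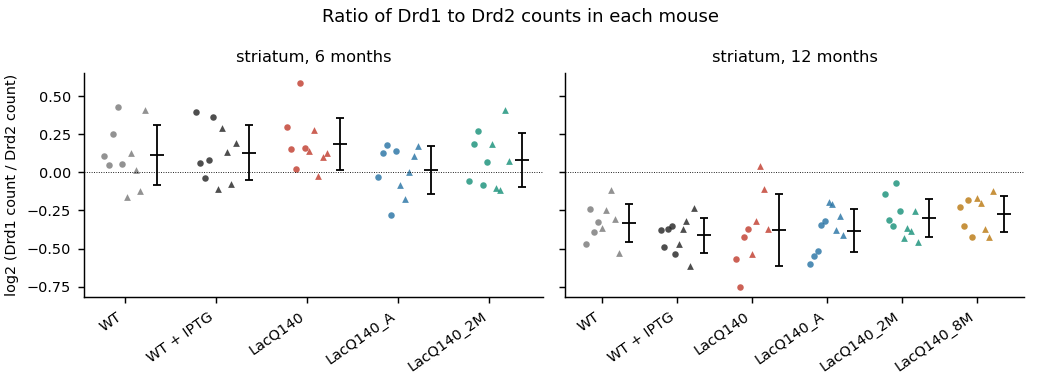
Log2 ratio of Drd1 to Drd2 counts (vertical axis) in the striatum of each mouse, by group, at 6 and 12 months. Circles are females, triangles are males and black marks are the mean ± SD; within an age all groups overlap, with group means from 0.017 to 0.185 at 6 months and from −0.413 to −0.274 at 12 months.

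The receptors were set beside other genes of their neurons and pathway, as LacQ140 against WT + IPTG in the striatum. The counts below stand against 3.97% of all genes called higher and 3.96% called lower at 6 months, and 4.58% and 4.86% at 12 months. Of 4 indirect pathway genes tested, 3 fell and 1 rose at 6 months (median log2 difference −0.45, all genes 0.00), and 3 fell at 12 months (median −0.99). These were Penk, the precursor of enkephalin, at −0.72 and then −1.30, Adora2a, an adenosine receptor, at −0.44 and −1.06, and Gpr6, an orphan receptor, at −0.46 and −0.92. Sp9, a transcription factor of these neurons, rose by 0.42 at 6 months and was at −0.06 at 12 months. Of 6 direct pathway genes 2 rose at 6 months (median 0.07), Isl1 and Eya1, transcriptional regulators, at 0.29 and 0.55. At 12 months 2 fell and 1 rose (median −0.12). Chrm4, a muscarinic receptor, was at −0.69 and Pdyn, the precursor of dynorphin, at −0.36, while Eya1 was at 0.31. The median of the indirect list was thus below that of the direct list at both ages, whereas Drd1 and Drd2 lay close to each other. Whether the lists differ was not tested.

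Among 22 genes of dopamine receptor signalling in the same comparison, 7 fell and none rose at 6 months (median −0.11), and 8 fell and none rose at 12 months (median −0.23). The 4 largest of these differences at 12 months were those of Pde10a, a phosphodiesterase of spiny neurons, at −1.10, Adcy5, the main striatal adenylyl cyclase, at −0.91, Rgs4, which shortens G protein signals, at −0.85, and Ppp1r1b, which encodes DARPP-32, at −0.78. Genes for the synthesis, transport and breakdown of dopamine gave a count of 0 of 7 called with edgeR at both ages (medians −0.01 and 0.07), with 3 and 4 at an unadjusted p under 0.05 and 0 called by DESeq2. Of 4 ventral striatal genes, Nts, which encodes neurotensin, rose by 0.54 at 6 months and by 0.89 at 12 months. Crym fell by 0.51 at 12 months. DESeq2 did not call Nts at 6 months.

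In the same comparison 3 of the 5 markers of striatal tissue were called lower in LacQ140 at 6 months and 4 of 5 at 12 months. Of these markers, Adora2a and Gpr6 also stand in the indirect list and Rgs9 in the signalling list above, so that the counts are not separate. Their sum ranged at 6 months from 785 to 1171 CPM in WT + IPTG and from 668 to 865 CPM in LacQ140, with overlap, and at 12 months from 1012 to 1438 CPM and from 612 to 745 CPM, with none. Markers of several other cell types were called as well. At 6 months 2 of 4 oligodendrocyte markers, 3 of 4 microglial markers and 1 of 4 astrocyte markers were called lower in LacQ140, against 1 of 4, 1 of 4 and 0 of 4 at 12 months with edgeR. DESeq2 also called 0 astrocyte markers at 12 months, where 2 of 4 had an unadjusted p under 0.05. Summed oligodendrocyte markers ranged at 6 months from 9626 to 11767 CPM in WT + IPTG and from 7451 to 9478 CPM in LacQ140, with no overlap. At 12 months the same sum ranged from 8540 to 11239 CPM and from 6613 to 10618 CPM, with overlap. Summed microglial markers ranged at 6 months from 228.7 to 296.4 CPM in WT + IPTG and from 194 to 237 CPM in LacQ140. Of 3 choroid plexus markers 1, Ttr, was called lower at both ages, and their sum reached 701 CPM in 1 WT + IPTG library at 6 months against a group median of 23.7. At 12 months the same sum reached 400 CPM in WT + IPTG female 5, against a group median of 19.8. Of 3 endothelial markers 0 were called at 6 months with edgeR or DESeq2, where all 3 had an unadjusted p under 0.05, and 1, Flt1, was called lower at 12 months. The 3 markers of cholinergic interneurons, which also express Drd2, gave a count of 0 called with edgeR and with DESeq2 at both ages, and 0 and 2 of them had an unadjusted p under 0.05. Both tools also called 0 of 2 dopamine neuron markers and 0 of 3 pituitary markers at both ages, and 1 dopamine neuron marker, at 12 months, had an unadjusted p under 0.05. The part of other cells in the receptor differences was not tested.

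The receptors' profiles over all striatal libraries were compared with those of 13281 genes by Pearson's r of log2 CPM, over 50 libraries at 6 months and 57 at 12 months, as a description that includes the group differences. Genes were ranked by the smaller r of the 2 ages. By that rank those most like Drd1 were Arpp21 (r = 0.894 and 0.901), Rgs4 (0.878 and 0.924) and Clspn (0.875 and 0.891). Those most like Drd2 were Pde1b (0.94 and 0.941), Adcy5 (0.933 and 0.953) and Sec14l1 (0.928 and 0.962). Drd2 stood at rank 48 in the list for Drd1 (0.782 and 0.91), and Drd1 at rank 122 in that for Drd2.

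The difference between LacQ140 and WT + IPTG was also compared between females and males. The interaction of sex and genotype called 0 of 5 receptors in either tissue at either age by edgeR's adjusted p, where 0.0%, 0.00565%, 0.0% and 0.0% of all genes were called. The lowest p belonged to Drd5 in the 12-month striatum, at a difference of 0.34 between the sexes (SE 0.16, unadjusted p = 0.0448, edgeR adjusted p = 0.52). Its log2 difference there was −0.11 in females (edgeR adjusted p = 0.726) and −0.45 in males (adjusted p = 0.00392). The 6-month difference of Drd3 was 0.80 in females (edgeR adjusted p = 0.0157) and 0.27 in males (adjusted p = 0.668), and their difference was 0.52 (SE 0.30, unadjusted p = 0.0834, edgeR adjusted p = 1.0). Drd5 was the only receptor with an unadjusted p under 0.05 for the interaction in the 4 sets of libraries, and DESeq2 was not applied to this term.

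The tissues were compared within WT mice, with and without IPTG, with the mouse as a block. At 6 months, over 20 mice, Drd1 was higher in striatum by 4.42 on the log2 scale (SE 0.10), Drd2 by 6.07 (SE 0.20), Drd3 by 2.77 (SE 0.24) and Drd5 by 1.42 (SE 0.10), all called by edgeR. Drd4 differed by −0.03 (edgeR adjusted p = 0.930). At 12 months, over 19 mice, the differences were 3.92 for Drd1, 7.83 for Drd2, 1.49 for Drd5 and 0.47 for Drd4 (edgeR adjusted p = 0.0653). Drd3 was also called, but was at 0 counts in 6 of 10 WT and 8 of 10 WT + IPTG cortical libraries, so that no fold change is given. Called receptors numbered 4 of 5 at each age, all higher in striatum, against 33.2% of all genes at 6 months (15.9% higher) and 53.8% at 12 months (25.9% higher). Beside this, the slope of log2 expression on transcript length differed between the tissues at 12 months, with group means of −0.310 to −0.207 in cortex and 0.291 to 0.379 in striatum, and not at 6 months (0.195 to 0.265 and 0.213 to 0.268). Its part in the 12-month values was not tested.

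In cortex Drd1 was the highest receptor. Its group means ran from 9.16 to 13.04 CPM at 6 months and from 12.3 to 15.3 CPM at 12 months, those of Drd2 from 2.20 to 4.39 and from 0.647 to 1.48, and those of Drd5 from 1.29 to 1.50 and from 1.09 to 1.32. Drd4, a receptor of cortical neurons, had group means of 0.215 to 0.409 CPM at 6 months and 0.207 to 0.346 at 12 months, close to its striatal level. Drd3 was at 0 counts in 9 of 50 libraries at 6 months and 47 of 60 at 12 months, where a count of 0 allows up to 0.0952 CPM (3 counts), for counting error only.

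edgeR called 0 of 5 receptors between LacQ140 and WT + IPTG in cortex at either age, against 0.881% of all genes at 6 months and 0.0899% at 12 months. At an unadjusted p under 0.05 it was 1 receptor at 6 months and 2 at 12 months, and DESeq2 called 0. The nearest were Drd1 and Drd2 at 12 months, at log2 −0.31 (unadjusted p = 0.0111, edgeR adjusted p = 0.449) and −0.68 (unadjusted p = 0.0126, adjusted p = 0.457), and Drd4 at 6 months. Drd4 ranged at 6 months from 0.107 to 0.429 CPM in WT + IPTG and from 0.217 to 0.690 CPM in LacQ140, overlapping, at 0.71 (unadjusted p = 0.0053, edgeR adjusted p = 0.172). edgeR and DESeq2 called 0 receptors in every other cortical comparison, where 0 to 3 had an unadjusted p under 0.05. The count of 3 was in LacQ140_2M against LacQ140 at 6 months. Leaving out 1 library there, the log2 difference ran from 0.42 to 0.61 for Drd1 and from 0.84 to 1.18 for Drd2. It ran from 0.17 to 1.0 for Drd3, −0.88 to −0.64 for Drd4 and −0.13 to 0.03 for Drd5. The share of all genes called at 6 months was 0.609% for IPTG in WT, 0.00834% and 0.0% for LacQ140_A and LacQ140_2M against LacQ140, 0.425% and 0.111% for the same groups against WT, and 0.0556% between them. At 12 months it was 0.0% for IPTG in WT, 0.0435%, 0.0841% and 0.0% for LacQ140_A, LacQ140_2M and LacQ140_8M against LacQ140, and 0.0174%, 0.0899% and 0.0377% against WT. Between these groups it was 0.0841% (LacQ140_A and LacQ140_2M), 0.0203% (LacQ140_8M and LacQ140_A) and 0.0899% (LacQ140_8M and LacQ140_2M).

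Striatal tissue markers varied between cortical libraries, and cortical Drd1, Drd2 and, at 6 months, Drd3 moved with them, while Drd4 and Drd5 were not set against them. Adora2a and Gpr6 among these markers are genes of the indirect pathway neurons that Drd2 also marks. The summed level of the 5 markers ran from 15.8 to 58.1 CPM at 6 months and from 9.49 to 29.4 CPM at 12 months. None of the 5 markers was called between LacQ140 and WT + IPTG, where only 0.881% of all genes at 6 months and 0.0899% at 12 months were called. Within groups at 6 months (50 libraries), the log2 level of Drd2 followed the mean log2 level of the markers with a Pearson r of 0.955 and a Spearman rho of 0.946, Drd1 with 0.892 and 0.893, and Drd3 with 0.791 and 0.79. Each had a permutation p of 1e-05, the smallest that 100000 resamples can give, adjusted to 1.5e-05 over 6 relations. Without the 2 libraries farthest from the median of that mean, r was 0.949 for Drd2, 0.907 for Drd1 and 0.766 for Drd3. At 12 months (60 libraries) r and rho were 0.661 and 0.493 for Drd2, 0.525 and 0.53 for Drd1, and 0.286 and 0.227 for Drd3 (permutation p of r and rho for Drd3 0.027 and 0.081). The last relation rested on the 2 libraries farthest out, without which r was 0.176 (permutation p = 0.18). Choroid plexus markers also varied in the 12-month cortex, with a median sum of 564 CPM (5.54 to 1099) in LacQ140 and 17.2 CPM (2.12 to 1321) in WT + IPTG. The part of striatal or choroid plexus tissue in the cortical differences between groups was not tested.

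**Figure D5:**
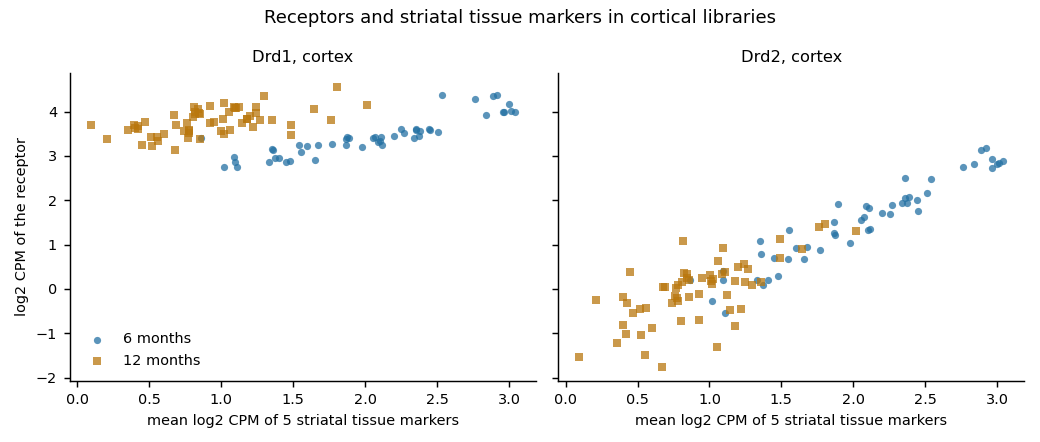
Log2 CPM of Drd1 (left) and Drd2 (right) in cortical libraries (vertical axis) against the mean log2 CPM of 5 striatal tissue markers (horizontal axis). Blue circles are 6-month and orange squares 12-month libraries; within groups the 6-month values of Drd2 follow the markers with r = 0.955 and the 12-month values with r = 0.661.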

How the data were processed

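Total RNA from striatum and cortex was sequenced by the authors on an Illumina NovaSeq as paired-end reads. They deposited expected counts per gene, 1 table per age, with the mouse build GRCm38 named in the submitters' notes; the aligner and counter are not given in the sources used here. Of nonzero values, 24.9% were not whole (tolerance 0.01), and counts were rounded. Depth per library was 33292014 to 68038785 counts, and Drd3 and Drd4 rested on few counts. Gene positions were taken from GENCODE vM21, which matched 54495 of 54532 genes.

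Genes with at least 1 count in a tissue and age were fitted with edgeR 4.0.16 (R 4.3.3; TMM, quasi-likelihood, 1 mean per group, groups from GEO's labels), with p adjusted over all genes and calls at an adjusted p below 0.05 and a change of at least 1.2-fold in either direction. SE was the log2 difference over the square root of F, and 95% intervals are approximate. In simulated data, where 100 genes were changed 1.3-fold and 100 2.0-fold, the LacQ140 comparison recovered 62% and 91% in the 6-month striatum (34757 genes), 59% and 91% in the 12-month striatum (34435), 42% and 92% in the 6-month cortex (34994) and 32% and 83% in the 12-month cortex (33622). The changed genes of the simulation were drawn from those with a mean of at least 10 counts, so that the shares recovered do not cover receptors below it. Calls among unchanged genes numbered 16, 9, 14 and 6 in the same order. log2 CPM used a prior count of 2. Ratios and correlations were tested by permutation (scipy 1.17.1), exactly where a group had under 10 mice.

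Alternatives were DESeq2 1.42.0, its size factors, filterByExpr, sex or length slope as covariate, a replicate block, only the groups compared, other WT controls, and leaving out each library. The receptors, the lists and the tests were chosen with earlier results of these data known. Genes outside the receptors were named where called in LacQ140 at either age, at most 4 of each pathway list by their 12-month difference, and as the 3 nearest profiles. The markers of striatal tissue were named as a list. Gpr52 of the indirect list was not analysed here. Calls among markers of cortical excitatory neurons are not reported here. P-values measure the spread between mice. Same-numbered mice were checked for pairing, and did not deviate together (mean r of 0.021 to 0.065).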

Additional observations from a re-analysis of the deposited data

Results flagged for a closer look

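Of 120 groups of values checked, 13 held a mouse whose gap to the next value took an unusually large share of the group's range (Dixon's test), where chance gives about 1 in 20. In the 6-month striatum the highest LacQ140_A mouse was female 4 for Drd2, at 282 CPM with the next at 234, and for Drd4, at 0.468 CPM with the next at 0.326. The log2 ratio of Drd1 to Drd2 was 0.585 in LacQ140 female 4, with the next at 0.3. In the 12-month striatum Drd2 was lowest at 146 CPM in LacQ140_2M female 4, with the next at 197, and Drd3 was lowest at 0.297 CPM in LacQ140_2M male 2, with the next at 1.01.

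In the 6-month cortex 1 mouse, LacQ140_A female 3, was highest for Drd1 (15.8 CPM, next 11.7), Drd2 (6.59, next 4.19) and Drd3 (0.676, next 0.23). In the 12-month cortex Drd1 reached 23.4 CPM in WT + IPTG female 5, with the next at 16.8. Drd2 was lowest at 0.512 CPM in LacQ140_A female 1 (next 0.858) and highest at 1.36 CPM in LacQ140_8M male 5 (next 0.832). Drd3 reached 0.0574 CPM in WT + IPTG female 4 (next 0.0287) and 0.0673 CPM in LacQ140_A male 1 (next 0.0), which is 2 counts in each library and under the level that a count of 0 allows.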

How the results depend on the processing

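The calls of Drd1 and Drd2 in the striatum of LacQ140 against WT + IPTG, in LacQ140_A and LacQ140_2M against LacQ140 at 6 months, and in the lowering groups against WT at 12 months were made under every alternative run. Of the others, without the bound of 1.2-fold Drd1 was called against WT at 6 months, at −0.20 in both lowering groups. With WT + IPTG in place of WT, Drd2 in LacQ140_A was 0.04 at 6 months, and at 12 months Drd4 in LacQ140_2M was 0.03 and Drd3 −0.05. With WT groups pooled, Drd4 in LacQ140 was called at −0.85 in the 12-month striatum and 0.81 in the 6-month cortex. Drd5 in LacQ140_A against LacQ140 at 6 months was gained with filterByExpr (0.29), sex (0.29) or the length slope (0.28) as covariate, and DESeq2 (0.30). Drd4 for IPTG in the 12-month striatum was gained with filterByExpr (−0.87). Drd5 in LacQ140_8M against WT was lost with sex as a covariate (−0.26) and with WT + IPTG in place of WT (−0.22). With only the groups compared, Drd5 in LacQ140 (−0.29) was lost and Drd1 in LacQ140_2M against LacQ140 (0.27) was gained at 12 months, as was Drd1 in LacQ140_A against LacQ140 in cortex (0.31). With the length slope as a covariate, Drd1 was called in LacQ140_A (0.30) and LacQ140_2M (0.27) against LacQ140 at 12 months. That covariate reversed 9 uncalled values. In the 12-month striatum these were Drd1 (−0.03) and Drd3 (−0.02) for IPTG in WT, Drd3 (0.05) in LacQ140_A against LacQ140, and Drd3 in LacQ140_2M (−0.02) and LacQ140_8M (−0.05) against WT. In cortex they were Drd5 for IPTG in WT (0.04) and in LacQ140_A against LacQ140 (−0.02) at 6 months, and Drd1 (−0.03) and Drd5 (0.01) in LacQ140_2M against LacQ140 at 12 months. With a pseudocount of 5, the cortical ratio in LacQ140_2M against LacQ140 was −0.003 at 12 months. With DESeq2 size factors, r of Drd3 with the markers in the 12-month cortex was 0.238 (permutation p = 0.069). The causes were not tested.

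Leaving out 1 library, Drd3 in LacQ140 ran from 0.42 to 0.57 in the 6-month striatum and Drd5 from −0.33 to −0.24 in the 12-month striatum. Drd2 in LacQ140_A against LacQ140 at 12 months ran from 0.20 to 0.27 and was called without LacQ140_A male 5, LacQ140 female 3 or LacQ140 female 4. Drd1 in LacQ140_2M ran from 0.24 to 0.30 and was called without LacQ140_2M female 4. Drd5 in LacQ140_A against LacQ140 at 6 months ran from 0.24 to 0.32 and was gained in 2 such fits. Drd4 for IPTG in the 12-month striatum was gained without WT + IPTG male 5 (−0.92).

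Same-numbered mice deviated together less than other numbers of the same sex, except in the 12-month cortex (mean r of 0.063 against 0.02). Libraries closest to their own number were 2 of 50 and 5 of 57 in the 6-month and 12-month striatum, and 8 of 50 and 11 of 60 in the cortex. With the replicate block, Drd5 in LacQ140_8M against WT was −0.26, under the bound of 1.2-fold, no other receptor call changed, and the genes called in LacQ140 against WT + IPTG in the striatum numbered 2782 (2840 without it) at 6 months and 3237 (3340) at 12 months. The genes called for IPTG in the 12-month striatum moved from 77 to 13 with only the groups compared, 14 with the replicate block and 127 with DESeq2, and those in LacQ140 in cortex from 317 to up to 609 at 6 months and from 31 to up to 441 at 12 months. The genes called against WT in the striatum moved from 326 to between 131 and 1364 (LacQ140_A, 6 months), from 1116 to up to 1959 (LacQ140_A, 12 months), from 1446 to up to 2274 (LacQ140_2M, 12 months) and from 2751 to up to 4363 (LacQ140_8M), and those for IPTG at 6 months from 209 down to 126. Drd4 and Drd3 carry wide intervals at their counts.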
